A study of Mus musculus with 6 samples.

Results

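The Sox genes described here are 10 transcription factor genes with roles in dental stem cells, enamel epithelium, mesenchyme and vessels: Sox2, Sox4, Sox5, Sox6, Sox9, Sox11, Sox12, Sox17, Sox18 and Sox21. They were chosen by gene symbol and not by a filter on their values, though earlier results of these data were known. Of the 10 symbols, 9 were among the 20162 rows of the deposited normalized table, and Sox2 was found in the raw count table, which has 48709 gene rows. RNA came from whole first molar tooth germs of C57BL/6 mice at postnatal day 7. There were 3 libraries from Gpr115-KO mice, of genotype Gpr115-/-, and 3 from wild-type (WT) littermates. Gpr115 (Adgrf4) is a receptor of the adhesion GPCR class, and the study asked how its loss affects enamel-forming ameloblasts. The labels name no other allele or agent, give no deleted exon, and do not say whether germs of several animals were pooled in a library.

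Sox proteins bind DNA through an HMG box, a domain that bends the helix at short sequences with an ACAAT-like core. The family is divided into groups by the similarity of this box, and members of a group often act in the same cells. In teeth, Sox2 marks epithelial stem cells of the continuously growing mouse incisor, Sox21 takes part in the fate of dental epithelium, Sox9 is active in epithelium and mesenchyme, and the SoxC genes Sox4, Sox11 and Sox12 accompany immature mesenchyme.

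Library totals ran from 8317302 to 10328654 counts in Gpr115-KO and from 8833612 to 11122821 in WT. Values are CPM, counts scaled to 1e6 per library after TMM correction, and 1 count was worth 0.0907 to 0.114 CPM. Adgrf4, the check of the labels, had 39.2, 20.6 and 27.5 CPM in Gpr115-KO, against 67.1, 62.5 and 67.5 CPM in WT. Its edgeR adjusted p was 0.0887. Tooth markers were abundant, with Amelx, the amelogenin gene, at 32478 ± 12073 CPM in Gpr115-KO and 22617 ± 2798 CPM in WT (SD, n = 3 each). A molar germ mixes epithelium, mesenchyme, vessels and nerve, so fewer cells of a type and less RNA per cell cannot be told apart in any value below.

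Sox9 was the most abundant of the 10 genes in both genotypes. On the scale of level per length, CPM per kilobase of exon, Sox9 averaged 194 ± 39.8 in Gpr115-KO and 266 ± 29.8 in WT (SD, n = 3 each). Sox4 came next, at 48.7 ± 13.1 in Gpr115-KO and 42.5 ± 4.92 in WT, followed by Sox11, at 25.2 ± 7.03 in Gpr115-KO and 24.5 ± 18.5 in WT. Sox21 followed, at 7.33 ± 4.43 in Gpr115-KO and 3.64 ± 0.208 in WT, ahead of Sox12, at 2.54 ± 0.831 in Gpr115-KO and 2.81 ± 0.939 in WT, and Sox18, at 0.804 ± 0.331 in Gpr115-KO and 0.849 ± 0.22 in WT. These 6 kept the same order in both genotypes. In Gpr115-KO the libraries of neighbouring genes did not overlap down to Sox18. In WT the libraries of Sox4 and Sox11, of Sox11 and Sox21 and of Sox21 and Sox12 overlapped, and the order of these neighbours did not hold in every WT library. For Sox11 and Sox21 the overlap rested on WT replicate 1, at 3.50 against 3.51. WT replicates 2 and 3 had 38 and 32.1 for Sox11, against 3.53 and 3.88 for Sox21. Sox2, Sox5, Sox6 and Sox17 all lay at or below 0.247 CPM per kilobase in every library, and neighbours in their order overlapped. Without regard to length, Sox9 made up 60.8%, 57.1% and 67.5% of the CPM summed over the 10 genes in Gpr115-KO, against 82.1%, 65.5% and 66.8% in WT. In WT replicate 1, where the Sox9 share was highest, Sox11 made up 1.93%, against 20.5% and 17% in WT replicates 2 and 3.

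**Figure D1:**
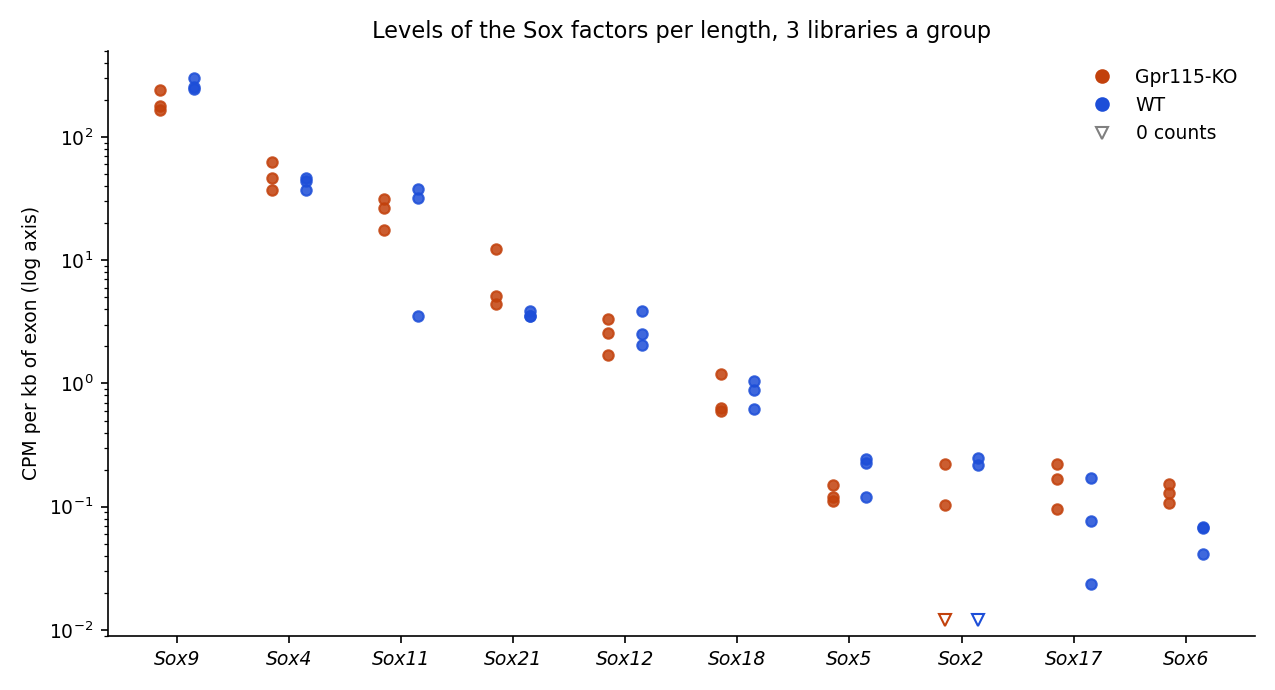
Level of each Sox gene in CPM per kilobase of exon on a log axis, with 3 Gpr115-KO and 3 WT libraries as points and libraries with 0 counts as open triangles. Sox9 lies above all others in every library, and Sox2, Sox5, Sox6 and Sox17 lie at or below 0.247.

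None of the 10 genes passed the test between genotypes. A gene was called when its adjusted p in edgeR's quasi-likelihood test was under 0.05, and 24 of the 16011 genes tested were called (0.150%), 0.0375% higher and 0.112% lower in Gpr115-KO. Of the 10 Sox genes 8 passed the filter on low counts, and Sox2 and Sox17 did not. The number called among the 8 was 0 by edgeR, 0 by the DESeq2 Wald test and 0 by limma-voom. At an unadjusted p under 0.05 there were 3 (Sox6, Sox9 and Sox21) by edgeR, 2 by DESeq2 and 3 by limma-voom, where 12.3% of all tested genes had such an edgeR p. By edgeR the number was 0 of 8 without Gpr115-KO replicate 2, 0 without WT replicate 1 and 1 without WT replicate 3. The same 3 genes were those whose Gpr115-KO and WT libraries did not overlap. Over all tested genes 17.5% did not overlap, 8.55% with Gpr115-KO higher, as for Sox6 and Sox21, and 8.99% with Gpr115-KO lower, as for Sox9. No Sox gene named here lies on chromosome 17, which carries Adgrf4, apart from Sox8, which had at most 4 counts in a library.

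**Figure D2:**
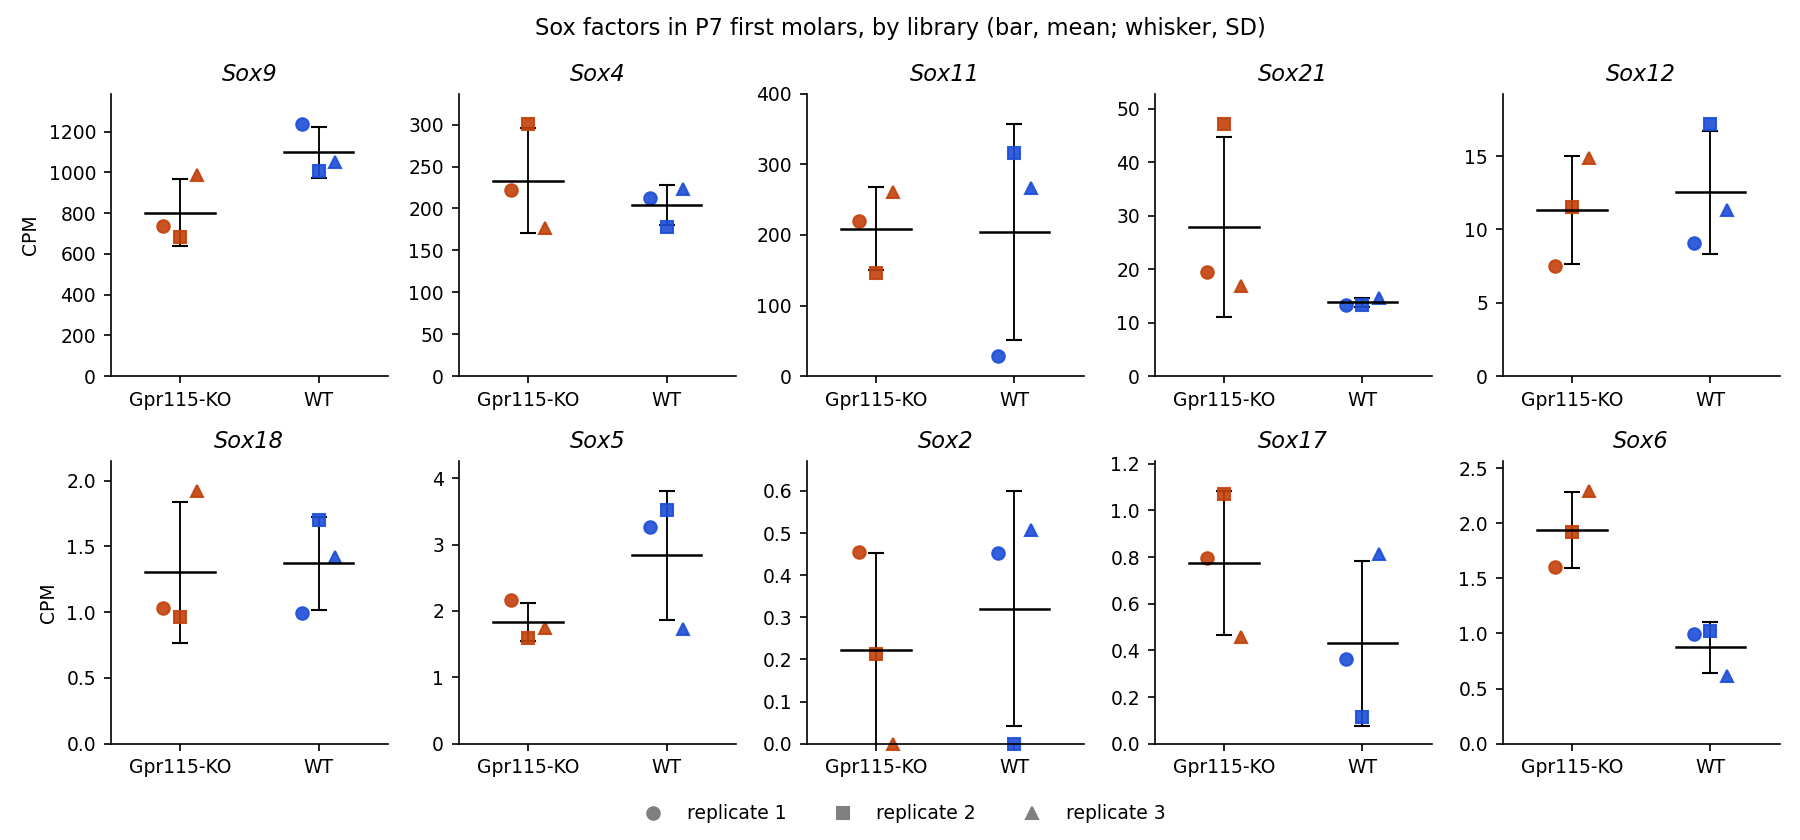
CPM of the 10 Sox genes in each library, with Gpr115-KO left of WT, marker shape giving the replicate number, bars the mean and whiskers the SD, drawn no lower than 0. The genotypes do not overlap for Sox9, Sox21 and Sox6, WT replicate 1 is low for Sox11 at 29.1 CPM, and Gpr115-KO replicate 2 is high for Sox21 at 47.2 CPM.

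Sox21 encodes a repressor of the SoxB2 group that acts in hair follicles and dental epithelium of the mouse. The gene (ENSMUSG00000061517; 1 exon on GRCm38 chromosome 14, 118233232 to 118237030, minus strand) had 19.5, 47.2 and 16.8 CPM in Gpr115-KO, against 13.3, 13.4 and 14.7 CPM in WT. Each Gpr115-KO library lay above each WT library, with Gpr115-KO replicate 2 far above the rest and replicate 3 closest to WT. The underlying counts were 171, 442 and 184 in Gpr115-KO and 147, 118 and 145 in WT. The log2 fold change was 1.01 (SE 0.36, 95% interval 0.19 to 1.82, adjusted p = 0.313 in edgeR). Without Gpr115-KO replicate 2 it was 0.39 (adjusted p = 0.591 in edgeR), so the size of the difference depends on that library.

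The 250 bases before the start of Sox21 are printed because that start lies inside Gm4675, a noncoding gene on the opposite strand, and because Sox21 had the widest spread in Gpr115-KO, relative to its mean, of the 8 tested genes. Promoters come from RefSeq on GRCm38.p6, read 5′ to 3′ on the strand of the gene, and capitals mark the motifs CCAAT and GGGCGG, searched on both strands together with TATAAA and ACAAT. The Sox21 window is chr14:118237031-118237280 on the minus strand and holds none of the 4 motifs.
Sox21: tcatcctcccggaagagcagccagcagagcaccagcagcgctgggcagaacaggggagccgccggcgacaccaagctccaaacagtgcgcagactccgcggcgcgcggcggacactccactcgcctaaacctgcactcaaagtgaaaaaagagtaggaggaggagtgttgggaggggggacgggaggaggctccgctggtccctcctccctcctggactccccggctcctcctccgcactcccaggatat

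Of 32851 RefSeq windows of this length, 33.8% hold CCAAT, 32.7% GGGCGG, 12.4% TATAAA and 27.7% ACAAT. The GC content of the Sox21 window was 65.2%, higher than in 83.0% of windows. Gm4675 shares 713 exonic bases with Sox21, 18.8% of its exon, and since the kit is not stranded, reads of the shared stretch cannot be told apart. Gm4675 itself had 5.93, 8.34 and 3.57 CPM in Gpr115-KO, against 3.36, 4.89 and 2.44 CPM in WT, with overlapping libraries. Its log2 fold change was 0.74 (SE 0.38, adjusted p = 0.457 in edgeR), and in both genes Gpr115-KO replicate 2 was the highest library.

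Gpr115-KO replicate 2 was also the highest library for summed markers of several tissues, and the lowest for others. It was lowest for mesenchyme (10298 CPM), endothelial (130 CPM) and cell cycle genes (113 CPM). The 12 dental epithelium genes summed to 2428, 3023 and 1260 CPM in Gpr115-KO, against 2252, 2139 and 2053 CPM in WT, and the 8 ameloblast genes to 126571, 203627 and 96417 CPM in Gpr115-KO, against 113082, 128073 and 146118 CPM in WT. Set against the epithelial sum, a ratio chosen after the values were seen, Sox21 had 8.02, 15.6 and 13.4 CPM per 1000 CPM in Gpr115-KO, against 5.92, 6.27 and 7.18 in WT. Per 1000 CPM of ameloblast genes it had 0.154, 0.232 and 0.175 in Gpr115-KO, against 0.118, 0.105 and 0.101 in WT. In these ratios all 3 Gpr115-KO libraries lay above all WT libraries. Gpr115-KO replicate 3, with 16.8 CPM of Sox21, had the lowest sums of both lists, 1260 and 96417 CPM. The share of all genes whose libraries separate in such ratios was not computed. Without a ratio 17.5% of tested genes did not overlap. Against mesenchyme and odontoblast genes the genotypes overlapped. Single genes made up most of a sum in every library: Ambn for ameloblast, Col1a2 for mesenchyme and Col1a1 for odontoblast genes. In WT, Ambn had 73633, 87581 and 100452 CPM, and Col1a1 had 30636, 55274 and 69001 CPM. Per 1000 CPM of mesenchyme genes Sox21 had 1.34, 4.59 and 1.11 CPM in Gpr115-KO, against 1.28, 1.06 and 0.868 in WT. Per 1000 CPM of odontoblast genes it had 0.340, 1.19 and 0.242 in Gpr115-KO, against 0.376, 0.213 and 0.187 in WT. Two-sided exact permutation tests on log2 ratios gave p = 0.2 for mesenchyme and 0.3 for odontoblast genes, both 0.457 after adjustment. For the epithelial and ameloblast ratios the exact permutation test gave p = 0.1 each, the smallest value that 3 against 3 libraries allow, and 0.4 after Benjamini-Hochberg adjustment over the 8 ratios computed.

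**Figure D3:**
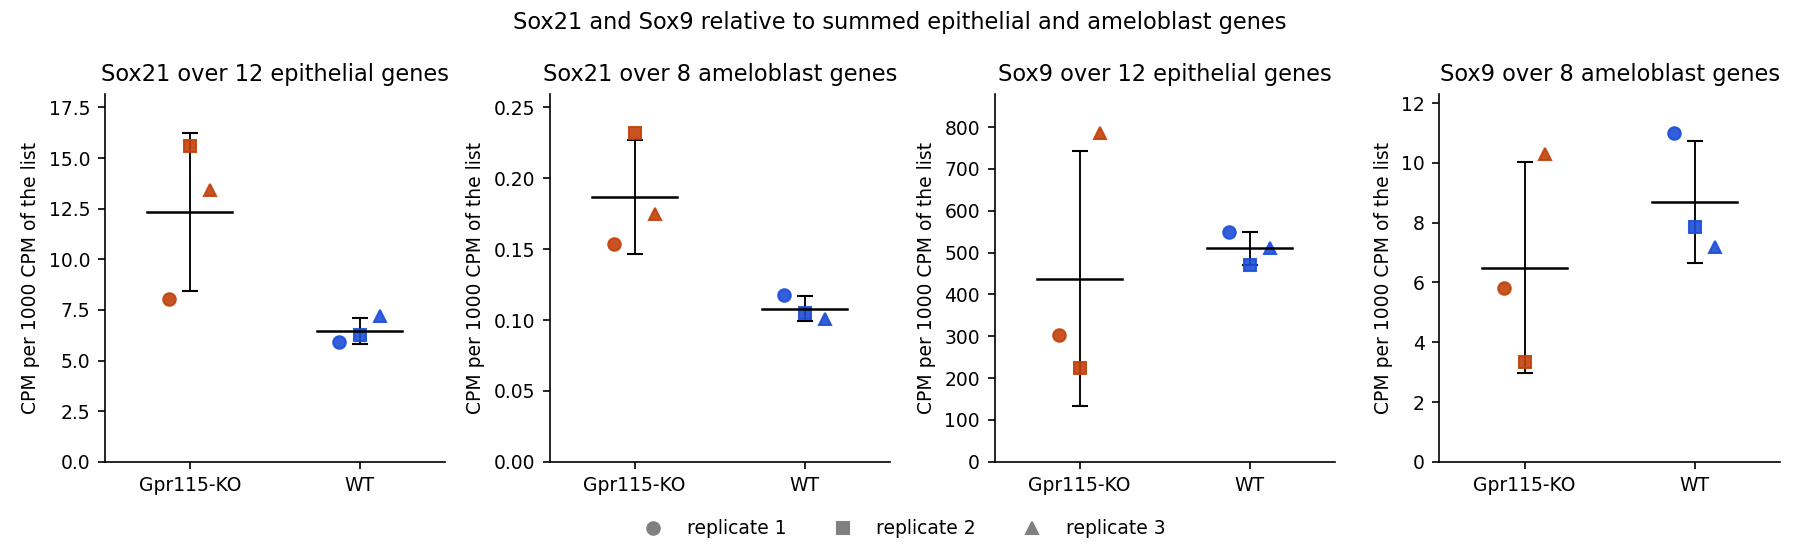
Sox21 and Sox9 in CPM per 1000 CPM of the 12 dental epithelium genes or the 8 ameloblast genes, by library, with Gpr115-KO left of WT, bars the mean and whiskers the SD. For Sox21 the genotypes do not overlap in either ratio, and for Sox9 they overlap in both, with Gpr115-KO replicate 3 at 786 per 1000 CPM of epithelial genes.

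Sox9 encodes the SoxE factor that directs cartilage formation and is active in progenitors of many epithelia. It (ENSMUSG00000000567; chromosome 11, 112782224 to 112787760, plus strand) had 737, 682 and 990 CPM in Gpr115-KO, against 1239, 1007 and 1049 CPM in WT. The Gpr115-KO libraries lay below all WT libraries, and the gap between Gpr115-KO replicate 3 and WT replicate 2 was small. Its mean in Gpr115-KO amounted to 73.1% of that in WT. The log2 fold change was −0.45 (SE 0.20, 95% interval −0.90 to −0.01), and the edgeR adjusted p was 0.399. With 6377 to 13659 counts per library, counting error was small beside the spread between libraries. Leaving out single libraries moved the log2 value between −0.63 and −0.35. Relative to the epithelial sum the genotypes overlapped, with 303, 225 and 786 CPM per 1000 CPM in Gpr115-KO and 550, 471 and 511 in WT (two-sided exact permutation p = 0.4). Relative to the 11 pulp and follicle mesenchyme genes they overlapped too, with 50.7, 66.2 and 65.1 CPM per 1000 CPM in Gpr115-KO and 119, 79.4 and 61.8 in WT (two-sided exact permutation p = 0.3). Most of that mesenchyme sum was Col1a2, at 12166, 8504 and 12035 CPM in Gpr115-KO and 7937, 10269 and 14966 CPM in WT. This overlap therefore depends largely on Col1a2, and a ratio without that gene was not computed.

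Sox21 and Sox9 differed in opposite directions, neither past the threshold. Sox21 had 26.4, 69.3 and 17.0 CPM per 1000 CPM of Sox9 in Gpr115-KO, against 10.8, 13.3 and 14.0 in WT, a ratio on the scale of counts not corrected for length. As neither gene overlapped between genotypes and their directions were opposite, this ratio had to separate them and adds no evidence.

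Of 13 genes that Sox9 and its SoxD partners control in cartilage, 10 were tested and none was called. Their median log2 fold change was 0.17, beside 0.01 over all tested genes, with 7 above and 3 below 0. Col9a3, a collagen IX chain, had 10.5 ± 1.39 CPM in Gpr115-KO and 5.46 ± 0.684 CPM in WT (SD, n = 3 each), a log2 fold change of 0.95 (SE 0.23, adjusted p = 0.195 in edgeR). Cnmd, encoding the cartilage glycoprotein chondromodulin, had 5.14 ± 2.05 CPM in Gpr115-KO and 7.48 ± 3.18 CPM in WT (SD, n = 3 each), a log2 difference of −0.52 (SE 0.37, adjusted p = 0.598 in edgeR). Col2a1, a defining cartilage gene, had 5.78 ± 1.8 CPM in Gpr115-KO and 5.04 ± 1.11 CPM in WT (SD, n = 3 each). Its log2 fold change was 0.19 (SE 0.31, adjusted p = 0.846 in edgeR). Col11a2 was more abundant, at 324 ± 42.6 CPM in Gpr115-KO and 389 ± 126 CPM in WT. Matn1, a matrilin, had 0 counts in all libraries, and Acan, the aggrecan gene, had 1.03 ± 0.432 CPM in Gpr115-KO and 0.514 ± 0.147 CPM in WT.

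The SoxD genes Sox5 and Sox6 encode factors without a transactivation domain that assist Sox9 in chondrocytes. Both were near the limit of detection. Sox6 (chromosome 7, 115470872 to 116038796) had 14, 18 and 25 counts in Gpr115-KO, or 1.60, 1.92 and 2.29 CPM, against 11, 9 and 6 counts in WT, or 0.997, 1.02 and 0.610 CPM. All Gpr115-KO libraries lay above all WT libraries. The log2 fold change was 1.14 (SE 0.45, 95% interval 0.15 to 2.12, adjusted p = 0.344 in edgeR). Sox5 (chromosome 6, 143828425 to 144781977) had 2.16, 1.60 and 1.74 CPM in Gpr115-KO, against 3.26, 3.52 and 1.73 CPM in WT, where WT replicate 3 lay within the Gpr115-KO range. Its log2 fold change was −0.63 (SE 0.40, 95% interval −1.51 to 0.25, adjusted p = 0.559 in edgeR). The annotation gives 14 transcripts for Sox5 and 16 for Sox6, which counts per gene do not resolve. Sox5os1, an antisense gene, shares 1330 exonic bases with Sox5 and had at most 1 count in a library.

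**Figure D4:**
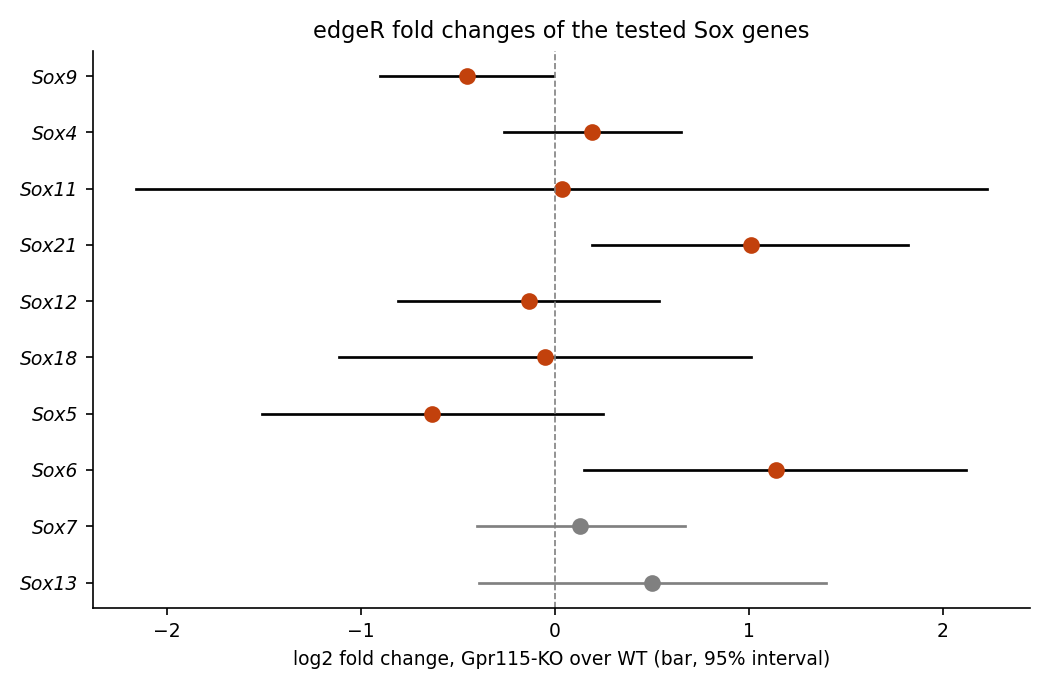
Log2 fold change of Gpr115-KO over WT from edgeR with its 95% interval for the 8 tested Sox genes of the list (coloured) and for Sox7 and Sox13 (grey). The intervals of Sox6, Sox9 and Sox21 leave out 0 before adjustment over all genes, and that of Sox11 runs from −2.16 to 2.23.

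The SoxC genes Sox4, Sox11 and Sox12 encode activators of immature mesenchyme and neurons and share targets. Sox4 (chromosome 13, 28948919 to 28953713) had 222, 301 and 177 CPM in Gpr115-KO, against 212, 178 and 223 CPM in WT. Its libraries overlapped, and the log2 fold change was 0.19 (SE 0.21, 95% interval −0.26 to 0.65, adjusted p = 0.748 in edgeR). Sox12 (chromosome 2, 152393611 to 152398063) had 7.52, 11.5 and 14.9 CPM in Gpr115-KO, against 9.07, 17.2 and 11.3 CPM in WT, likewise overlapping. Its log2 fold change was −0.13 (SE 0.30, 95% interval −0.81 to 0.54, adjusted p = 0.891 in edgeR).

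Sox11 (chromosome 12, 27334264 to 27342574) had 220, 146 and 261 CPM in Gpr115-KO, against 29.1, 316 and 267 CPM in WT. WT replicate 1 was 5.01-fold below the next lowest library. It had 321 counts, where the other 5 libraries had 1364 to 2853. Among 11189 tested genes with a mean of at least 5 CPM, 2 were at least 4-fold lower in WT replicate 1 than in every other library, Sox11 and Gas2l3, a cytoskeletal linker gene, both named after their values were seen. The 7 odontoblast genes, summed, were lowest in the same 2 libraries as Sox11, with 57355, 39757 and 69516 CPM in Gpr115-KO and 35487, 63032 and 78899 CPM in WT. The same 2 libraries were lowest for the 11 mesenchyme genes, at 10298 CPM in Gpr115-KO replicate 2 and 10435 CPM in WT replicate 1. They were also lowest for the 13 cartilage genes, at 487 and 435 CPM. The part of these lists in the Sox11 values was not tested. The log2 fold change of Sox11 was 0.04 (SE 0.85, 95% interval −2.16 to 2.23, adjusted p = 0.991 in edgeR), and without WT replicate 1 it was −0.48 (adjusted p = 0.826 in edgeR). The ratio of Sox4 to Sox11 in CPM was 1.01, 2.07 and 0.679 in Gpr115-KO, against 7.27, 0.562 and 0.836 in WT.

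The promoters of the abundant SoxC pair are printed beside the values because both genes are single-exon genes at similar levels that parted in WT replicate 1. The Sox4 window is chr13:28953700-28953949 and the Sox11 window chr12:27342719-27342968, both on the minus strand.
Sox4: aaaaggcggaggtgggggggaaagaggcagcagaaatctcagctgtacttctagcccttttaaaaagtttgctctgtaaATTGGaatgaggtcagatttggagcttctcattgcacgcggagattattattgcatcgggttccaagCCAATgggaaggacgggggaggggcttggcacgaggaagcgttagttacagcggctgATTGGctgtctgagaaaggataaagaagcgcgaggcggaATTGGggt
Sox11: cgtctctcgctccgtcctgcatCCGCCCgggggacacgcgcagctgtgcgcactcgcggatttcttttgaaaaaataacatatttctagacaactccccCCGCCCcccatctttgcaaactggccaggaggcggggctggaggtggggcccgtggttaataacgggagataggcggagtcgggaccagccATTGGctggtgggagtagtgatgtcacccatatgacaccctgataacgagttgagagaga

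The Sox4 window holds 4 CCAAT motifs, counting its reverse form ATTGG, and the Sox11 window holds 1 CCAAT and 2 GGGCGG motifs. Neither holds TATAAA or ACAAT. These matches describe letters in the window and say nothing of binding.

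Sox4 also shares its 3′ part with Gm26735, a noncoding gene on the opposite strand, over 2616 bases, which is 54.6% of the Sox4 exon and nearly all of the 2649 exonic bases of Gm26735. Counts of Gm26735 were 1954, 2685 and 1815 in Gpr115-KO, where Sox4 had 1946, 2820 and 1936, and 2249, 1401 and 2232 in WT, where Sox4 had 2333, 1562 and 2193. The noncoding row thus held 89.7% to 102% of the Sox4 counts in every library. The sources used here do not give how reads of the shared bases were assigned, and without strand they cannot be told apart.

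Sox17 and Sox18 are SoxF genes of vessel and lymphatic endothelium. Sox18 (chromosome 2, 181669836 to 181671640) had 1.03, 0.962 and 1.92 CPM in Gpr115-KO, against 0.997, 1.70 and 1.42 CPM in WT, with overlapping libraries. Its log2 fold change was −0.05 (SE 0.48, 95% interval −1.11 to 1.01, adjusted p = 0.975 in edgeR). Sox17 (chromosome 1, 4490931 to 4497354) had 7, 10 and 5 counts in Gpr115-KO, against 4, 1 and 8 counts in WT, and was not tested. Sox7, the remaining SoxF gene, had 6.27, 7.59 and 8.05 CPM in Gpr115-KO, against 7.07, 5.57 and 7.32 CPM in WT, a log2 fold change of 0.13 (SE 0.24, adjusted p = 0.861 in edgeR). Per kilobase of exon Sox7 lay at 2.21 ± 0.28 in Gpr115-KO and 2.02 ± 0.287 in WT (SD, n = 3 each), above Sox18. The 14 endothelial genes summed to 130 to 153 CPM in Gpr115-KO and 141 to 152 CPM in WT. Of their 13 tested members 0 were called by edgeR, and 0 had an unadjusted p under 0.05. Flt1, a VEGF receptor, had a log2 fold change of −0.26 (SE 0.27) and Pecam1, an adhesion molecule of endothelium, −0.26 (SE 0.29).

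Sox2, the SoxB1 gene of incisor epithelial stem cells, was at the detection limit. It (chromosome 3, 34650405 to 34652461) had 4, 2 and 0 counts in Gpr115-KO, against 5, 0 and 5 counts in WT. A count of 0 allows up to 0.274 CPM in Gpr115-KO replicate 3 and 0.341 CPM in WT replicate 2, counting error only, so a difference between genotypes was not detectable at this depth. Sox2ot, the noncoding gene in whose intron Sox2 lies, had 12, 0 and 1 counts in Gpr115-KO, against 12, 8 and 3 in WT. Of 12 genes tied to dental epithelial progenitors 11 were tested, 0 were called by edgeR and 1 had an unadjusted p under 0.05. Their median log2 fold change was −0.03, with 5 above and 6 below 0. Sfrp5, a secreted Wnt antagonist, had 6.66 ± 2.55 CPM in Gpr115-KO and 3.84 ± 0.86 CPM in WT (SD, n = 3 each), a log2 fold change of 0.80 (SE 0.33, adjusted p = 0.365 in edgeR). Bcl11b, a zinc finger factor of ameloblast development, had −0.34 (SE 0.18, adjusted p = 0.466 in edgeR).

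Of 9 other Sox family genes looked up, Sox7 and Sox13 were tested. Sox13, the third SoxD gene, had 2.85, 7.48 and 5.03 CPM in Gpr115-KO, against 2.72, 5.34 and 2.85 CPM in WT, a log2 fold change of 0.50 (SE 0.41, adjusted p = 0.650 in edgeR). Sox15 had 2, 4 and 4 counts in Gpr115-KO, against 7, 4 and 10 in WT. Sox10, the SoxE gene of Schwann cells, had 0, 1 and 3 counts in Gpr115-KO, against 0 in all WT libraries. Sox1, Sox3, Sox8, Sox14 and Sox30 had at most 4 counts in any library.

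Subunits of the anaphase-promoting complex were looked up because Sox21 has been tied to Anapc10 in dental epithelium of the mouse. Anapc10 had 28.9 ± 4.98 CPM in Gpr115-KO and 24.5 ± 2.28 CPM in WT (SD, n = 3 each), a log2 fold change of 0.24 (SE 0.18, adjusted p = 0.622 in edgeR). None of the 16 genes was called by edgeR, and 3 had an unadjusted edgeR p under 0.05, beside 12.3% of all tested genes. The median was 0.07, with 9 above and 7 below 0. Anapc2, the cullin-like subunit, had −0.55 (SE 0.17, adjusted p = 0.268 in edgeR) and Cdc26, a small scaffold subunit, −0.41 (SE 0.15, adjusted p = 0.325 in edgeR). Anapc7, the third of the 3, went the other way, at 0.45 (SE 0.18, adjusted p = 0.355 in edgeR).

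In the marker lists of the tissues around the Sox genes no gene was called by edgeR. Of 12 dental epithelium genes 2 had an unadjusted edgeR p under 0.05: Cdh1, encoding E-cadherin, at −0.62 (SE 0.18) on the log2 scale, and Sp6, an enamel epithelium factor, at 0.64 (SE 0.22), with a list median of −0.03. Medians were −0.05 for 8 ameloblast genes (Amelx 0.52, Mmp20, the enamel protease, 0.39), 0.23 for 11 mesenchyme genes (Barx1, a molar homeobox gene, 0.65, Postn, a matrix gene, 0.34) and −0.07 for 7 odontoblast genes (Dmp1 −0.41, Smpd3 0.19). They were −0.04 for the endothelial list, −0.07 for 8 cell cycle genes (Pcna 0.27, Ccnb1 −0.53) and −0.16 for the 5 tested of 8 Schwann cell genes (Erbb3, a neuregulin receptor, −0.51). All 6 tested erythroid genes had an unadjusted edgeR p under 0.05, beside 12.3% of all tested genes, and a median of 1.34 (Slc4a1 1.47, Hbb-bt 1.45). Of 7 tested leukocyte genes 4 had such a p, with a median of 0.48 (Mpo 1.50, S100a9 1.81). Of these 7 genes 5 lay above 0 and 2 below, Ptprc at −0.23 and Csf1r at −0.13.

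Summed erythroid genes were 305, 396 and 159 CPM in Gpr115-KO, against 139, 142 and 158 CPM in WT, so Gpr115-KO replicates 1 and 2, the pair lowest in Sox9, stood highest. Summed leukocyte genes were 87.5, 102 and 105 CPM in Gpr115-KO, against 76.7, 86.7 and 76.4 CPM in WT. The 8 muscle genes, 5 of them tested with a median of 1.09 (Mylpf 1.48, Tnni2 1.04), summed to 19.6, 171 and 52.6 CPM in Gpr115-KO, against 41.5, 34.9 and 29.7 CPM in WT, highest in the library highest in Sox21. The 9 genes of keratinizing oral epithelium, 7 of them tested with a median of 0.29 (Krt10 0.14, Dmkn 0.29), summed to 277, 36.1 and 51.5 CPM in Gpr115-KO, against 139, 35.6 and 117 CPM in WT. The part of these tissues in the Sox values was not tested.

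**Figure D5:**
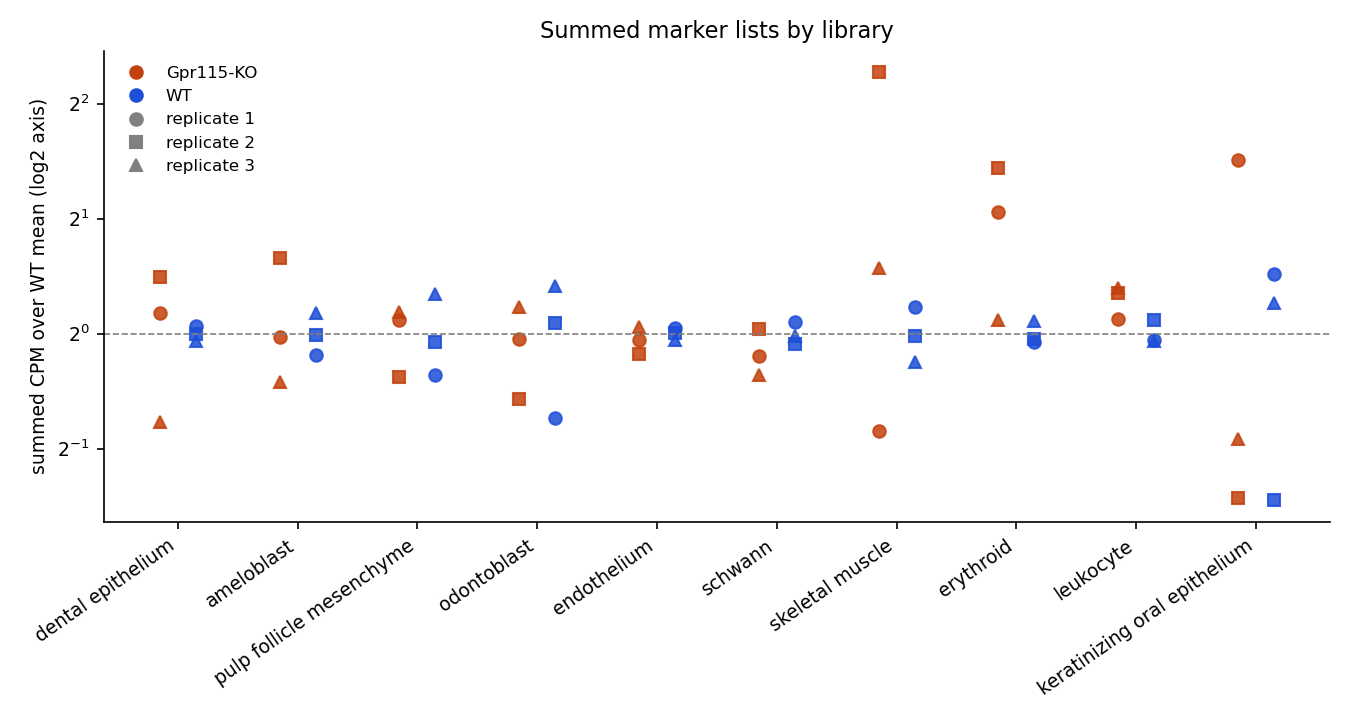
Summed CPM of 10 marker lists in each library divided by the WT mean, on a log2 axis, with Gpr115-KO left of WT and marker shape giving the replicate number. Gpr115-KO replicate 2 is highest for epithelial (3023 CPM), ameloblast (203627 CPM), muscle (171 CPM) and erythroid (396 CPM) genes. It is lowest for mesenchyme genes (10298 CPM), and endothelial sums stay between 130 and 153 CPM.

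The genes with profiles most like that of Sox9 over the 6 libraries, among 9886 tested genes with a mean of at least 5 CPM after leaving out predicted genes and pseudogenes, were Pfkfb2 (Pearson r = 0.991), Mtfr1l (0.986), Zfp266 (0.986) and Slc18a2 (0.986), on log2(CPM + 0.5). Pfkfb2 had 19.7, 19.3 and 33.7 CPM in Gpr115-KO, against 43.4, 34.7 and 34.7 CPM in WT, and 191 genes had an r of at least 0.9. For Sox21 they were Timm17b (0.997), Sucla2 (0.994), Man1a (0.992) and Sla2 (0.990), with 411 genes at 0.9 or more. Man1a had 7.18, 14.4 and 6.59 CPM in Gpr115-KO, against 5.98, 5.46 and 5.59 CPM in WT, highest like Sox21 in Gpr115-KO replicate 2. These values describe 6 points that share their libraries and carry no test.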

How the data were processed

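Per the labels' protocols, total RNA was taken with TRIzol and sequenced from Nextera XT libraries, which are not stranded. Per the submitters' processing notes, STAR 2.5.2a, DESeq2, edgeR and limma were used with GRCm38 (mm10). The sources used here name neither a read counter nor an annotation release. Raw gene counts were deposited, with 15 transgene rows that were left out (at most 8 counts in a library). The deposited normalized table holds a signal, CPM scaled by TMM. Divided by 1 factor per column it gave whole reads for 100% of values (tolerance 0.01), equal to the counts in all 20162 rows.

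Genes passing filterByExpr (minimum count 10) entered edgeR 4.0.16 (R 4.3.3), using TMM scaling, genotype as the only term, the quasi-likelihood test with robust shrinkage, and Benjamini-Hochberg adjustment over 16011 genes. The SE is the absolute log2 fold change over the square root of F. Alternatives used DESeq2 1.42.0 and limma 3.58.1. Lengths and positions are from GENCODE M21, and lengths are unions of exons. Intervals and floors for single counts cover counting error only. The p-values measure the spread between libraries, which may be partly technical. Counts of pairs of libraries differed by 16.1 to 89.2 times the level of sampling noise (chi-square per degree of freedom), so none was a repeated sequencing of another. Whether libraries shared RNA or an animal cannot be told from these counts.

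The 10 genes and the 15 lists were chosen with earlier results of these data known. Named were all 10 genes, other Sox genes, Adgrf4, genes overlapping a member, the 2 genes of smallest p per list where none passed, and the 4 genes most like Sox9 and Sox21, without predicted genes and pseudogenes. A gene that this rule names is not reported here. Outside the rule, Anapc7, Anapc10, Acan, Matn1, Col2a1, Col11a2, Ptprc, Csf1r, Ambn, Col1a1 and Col1a2 were named after their values were seen.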

Additional observations from a re-analysis of the deposited data

How the results depend on the processing

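No Sox gene was called under any alternative run, so none gained or lost a call. Of 134 values of the 8 tested genes under alternatives 124 kept their sign and 10 did not. Sox5, Sox6, Sox9 and Sox21 kept it throughout, with ranges of −0.88 to −0.41, 0.64 to 1.36, −0.63 to −0.35 and 0.39 to 1.27. Sox18 turned to 0.03 on library totals alone. Leaving out single libraries gave −0.03 to 0.36 for Sox4, −0.48 to 0.50 for Sox11, −0.38 to 0.16 for Sox12 and −0.46 to 0.12 for Sox18.

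Over all genes, 6 were called higher and 18 lower. DESeq2 called 65 and 184, no count filter 135 and 365, the deposited values with limma-trend 10 higher, and library totals alone 11 lower. Leaving out single libraries gave 5 to 10 higher and 7 to 39 lower, at the ends 10 and 7 without WT replicate 2, 9 and 39 without Gpr115-KO replicate 1, and 5 and 9 without WT replicate 1. The edgeR fit on reads recovered from the normalized table, added after the data were seen, gave 6 and 18. The causes were not tested. Without a filter 29163 genes entered the test. With the replicate number as a block 18 and 54 were called and Sox21 stood at 0.85. Deviations of same-numbered libraries correlated at 0.27, 0.0344 and −0.0725, and libraries did not all correlate best with their own number, so the numbers were not taken as pairs. The order of levels was the same with the longest transcript in place of the exon union. Depth limits Sox2, Sox5, Sox6, Sox17 and Sox18.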
